A study of Mus musculus with 9 samples.

Results

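Receptors and ligands of the GDNF family and of the neurotrophins were examined in midbrain dopaminergic neurons and in whole midbrain. The 9 genes (Ret, Gfra1, Gfra2, Gfra3, Gdnf, Bdnf, Ntrk2, Ntrk3 and Ngfr) were chosen by symbol, and each matched 1 of the 24487 rows of the deposited table of FPKM, fragments scaled by the mapped total and by transcript length. RNA sequencing had been done on 4 libraries of dopaminergic neurons from the midbrain and 5 libraries of whole midbrain, all from mice of the C57BL/6 strain background. The labels give no genotype, treatment, age or sex. They do not state how the dopaminergic RNA was obtained, and the name of the table carries the term bacTRAP, the usual name for the capture of ribosomes tagged in a chosen cell type. An effect of such a capture and that of cell type cannot be told apart here. Nothing says whether libraries came from separate animals or pools, so the p-values speak for the spread of these libraries alone, and that spread could be a technical one.

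As background, GDNF is a secreted survival factor first purified for its action on cultured midbrain dopaminergic neurons. It binds the lipid-anchored co-receptor encoded by Gfra1, and this pair engages the receptor tyrosine kinase Ret. The co-receptors encoded by Gfra2 and Gfra3 prefer the related ligands neurturin and artemin. Of the neurotrophins, BDNF activates the kinase TrkB, encoded by Ntrk2, neurotrophin 3 activates mainly TrkC, encoded by Ntrk3, and all neurotrophins can bind p75NTR, encoded by Ngfr. Ntrk2 and Ntrk3 also produce receptors without the kinase domain, and truncated TrkB is abundant in astrocytes. The table has 1 row per gene, so the forms with and without kinase were not separated.

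Promoter sequences are shown for the co-receptor gene that rose with Ret, for the receptor gene that fell most, and for the ligand gene among the members called higher. RefSeq windows (build GRCm38.p6, from 250 bases before to 50 bases after a start site) were found for 5 of the 9 genes, 12 windows in all, with 7 of them for the many start sites of Bdnf. Capitals mark matches to 4 motifs searched on both strands. The motifs are AAAGGTCA (the NBRE bound by Nr4a receptors), TGACGTCA (the cAMP response element), TCACGTCA (a variant of it) and GGGCGG (the GC box). The variant has the length of the cAMP response element and differs from it in a single letter, so no site can match both.
Gfra1 (chr19:58455349-58455648, minus strand): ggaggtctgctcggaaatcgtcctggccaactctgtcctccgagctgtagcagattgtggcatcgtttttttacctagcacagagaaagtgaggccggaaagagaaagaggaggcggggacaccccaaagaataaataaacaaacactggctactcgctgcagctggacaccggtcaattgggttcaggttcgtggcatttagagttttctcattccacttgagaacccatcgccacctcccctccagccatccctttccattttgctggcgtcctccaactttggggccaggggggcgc
Ntrk2 (chr13:58806319-58806618, plus strand): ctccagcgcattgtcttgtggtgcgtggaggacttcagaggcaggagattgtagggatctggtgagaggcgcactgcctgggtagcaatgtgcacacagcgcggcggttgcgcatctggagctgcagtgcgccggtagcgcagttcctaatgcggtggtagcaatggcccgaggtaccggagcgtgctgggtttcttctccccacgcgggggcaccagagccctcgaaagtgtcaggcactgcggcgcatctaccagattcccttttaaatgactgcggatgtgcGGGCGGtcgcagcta
Bdnf (chr2:109692186-109692485, plus strand): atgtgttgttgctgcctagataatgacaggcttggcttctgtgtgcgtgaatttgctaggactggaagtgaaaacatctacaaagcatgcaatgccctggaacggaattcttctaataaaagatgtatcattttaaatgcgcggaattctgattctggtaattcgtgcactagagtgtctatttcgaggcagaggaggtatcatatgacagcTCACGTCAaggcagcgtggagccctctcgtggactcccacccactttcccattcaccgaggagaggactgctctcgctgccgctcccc
The Bdnf window holds TCACGTCA, whose first base lies 38 bases before the start site. That motif was in 0.441 percent of 32851 windows of all genes. This window was shown because it is the only 1 of the 12 with that motif, so the share is no measure of how unusual the match is. The Ntrk2 window holds GGGCGG beginning 35 bases after the start site, a motif found in 35.7 percent of all windows. The Gfra1 window holds none of the 4. AAAGGTCA, in 1.51 percent of all windows, and TGACGTCA, in 1.79 percent, were in 0 of the 12 windows. These matches describe letters in a short window and do not show binding.

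Before the results, the libraries are described in ranges. Lowest length-scaled values of single-exon chemoreceptor genes, taken as 1 read each, correspond to about 47.3 to 62.5 megareads in the dopaminergic libraries and 16.2 to 33.5 megareads in the whole midbrain libraries. FPKM over all rows summed to 506466 to 521822 in the dopaminergic libraries, and to 309275 to 313252 in the whole midbrain libraries other than library 2, which summed to 409130. Whole midbrain library 2 stood apart from its group, with a Pearson correlation across genes of 0.903 to 0.906 with the rest of its group, against 0.947 to 0.962 among the others. The dopamine genes matched the labels. Th, which encodes the rate-limiting enzyme of dopamine synthesis, ranged over 1491 to 1722 FPKM in the dopaminergic libraries and over 43.7 to 51.5 FPKM in whole midbrain, and Slc6a3, Slc18a2 and Ddc were 16.6-fold, 5.45-fold and 13.5-fold higher. Defining markers of other cells were low but not absent in the dopaminergic libraries. Summed FPKM ran from 184 to 225 in dopaminergic libraries against 1525 to 1632 in whole midbrain for 12 astrocyte markers, and from 180.1 to 309 against 2973 to 3449 for 10 oligodendrocyte markers.

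Among the members, Ret and its co-receptor gene Gfra1 rose, and the neurotrophin receptor genes Ntrk2 and Ntrk3 fell. Bdnf rose more modestly in FPKM as deposited, a rise that depended on the scaling of the libraries. Ret averaged 103 ± 3.77 FPKM in dopaminergic neurons (SD, n = 4) and 9.70 ± 1.36 FPKM in whole midbrain (SD, n = 5), 10.6-fold higher. Ntrk2 averaged 12.3 ± 1.06 FPKM in dopaminergic neurons and 91.9 ± 3.29 FPKM in whole midbrain, 7.48-fold lower. The groups were compared with limma on log2(FPKM + 1) for the 13106 genes that averaged 1 FPKM or more over all 9 libraries, with Benjamini-Hochberg adjustment over those genes. That scale understates changes of low genes. Of the 9 members 6 passed that minimum, of which 4 were called higher and 2 lower at an adjusted p under 0.05. Over all genes tested 38.3 percent were called higher and 36.0 percent lower, so calls were common in this comparison. The libraries of the 2 groups did not overlap, with dopaminergic neurons higher, for 32.6 percent of these genes, and with dopaminergic neurons lower for 31.8 percent. The result depends on scaling for the smaller changes. When each library was rescaled to the same sum (TPM), the median log2 difference over all genes moved to -0.55, against 0.04 for FPKM as deposited, and 2 members (Ret and Gfra1) were called higher and 3 (Gfra2, Ntrk2 and Ntrk3) lower, where 17.2 percent of all genes were higher and 56.4 percent lower.

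**Figure D1:**
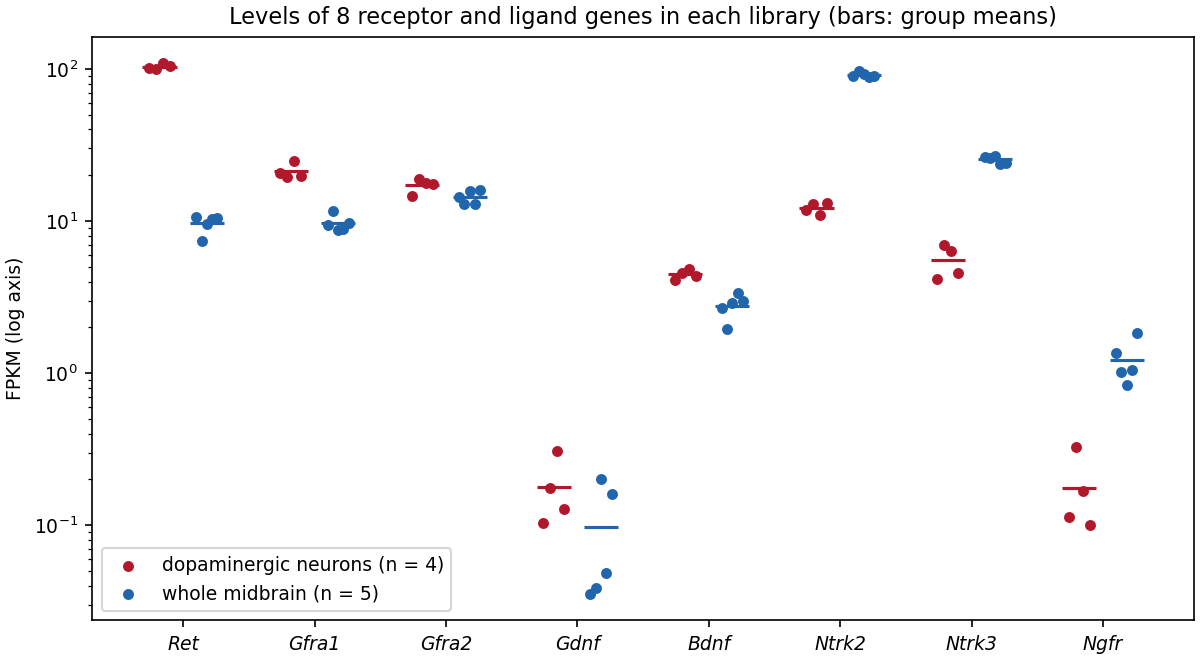
FPKM (log axis) of 8 members in each of the 4 dopaminergic and 5 whole midbrain libraries, with points for libraries and bars for group means; Gfra3, listed at 0 in all 9 libraries, has no place on a log axis. Groups separate for Ret, Gfra1, Bdnf, Ntrk2, Ntrk3 and Ngfr and overlap for Gfra2 and Gdnf.

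The ligands were among the lowest members. Gdnf was at 0.104, 0.176, 0.309 and 0.127 FPKM in dopaminergic libraries 1 to 4, against 0.0355, 0.0387, 0.202, 0.0486 and 0.161 FPKM in whole midbrain libraries 1 to 5. The groups overlapped, since whole midbrain libraries 3 and 5 lay within the dopaminergic range. At the depths estimated above, these values correspond to 5.06 to 19.3 reads per kilobase of positions in dopaminergic libraries and 0.893 to 5.36 in whole midbrain libraries, so counting error is large for this gene. Its mean of 0.134 FPKM over the 9 libraries was under the minimum for testing. Fitted without that minimum its log2 difference was 0.10 ± 0.07 (SE; limma adjusted p = 0.269), and an exact two-sided permutation test over libraries gave p = 0.175.

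Bdnf, the ligand of TrkB, was at 4.10, 4.56, 4.82 and 4.36 FPKM in dopaminergic libraries 1 to 4, against 2.69, 1.94, 2.91, 3.34 and 3.0 FPKM in whole midbrain libraries 1 to 5. All dopaminergic libraries were above all whole midbrain libraries, and whole midbrain library 2 was the lowest of its group. The log2 difference was 0.54 ± 0.12 (SE; limma adjusted p = 0.00163), a 1.61-fold difference in mean FPKM, and 0.45 without whole midbrain library 2. As TPM the difference was 0.05 with an adjusted p of 0.832 (limma), so this call depends on how the libraries are scaled. The call held under quantile normalization (0.87, limma adjusted p = 1.9e-04), upper-quartile scaling (0.49, 0.00484) and median centring (0.61, 0.00133). The exons of Bdnf (chromosome 2, 109674700 to 109727043, mm10) share 896 of 6217 bases with Gm45346 on the opposite strand in GENCODE, and reads of that RNA cannot be told apart in data not stated to keep the strand.

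Ret, the kinase shared by the GDNF family co-receptors (chromosome 6, 118151748 to 118197744), was at 101, 100.3, 109 and 104 FPKM in dopaminergic libraries 1 to 4, against 10.7, 7.40, 9.59, 10.3 and 10.5 FPKM in whole midbrain libraries 1 to 5. The dopaminergic values lay close together and far above whole midbrain, where library 2 was again the lowest. The log2 difference was 3.29, with a 95 percent interval of 3.07 to 3.52 (limma adjusted p = 3.3e-09), and 2.74 as TPM. By mean FPKM Ret stood at the 96.6th percentile of all rows in dopaminergic neurons and at the 75.8th in whole midbrain.

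Gfra1 (chromosome 19, 58235581 to 58455398) was at 20.8, 19.5, 24.9 and 19.9 FPKM in dopaminergic libraries 1 to 4, against 9.36, 11.7, 8.71, 8.92 and 9.69 FPKM in whole midbrain libraries 1 to 5. The groups did not overlap, and whole midbrain library 2 was the highest of its group for this gene. The log2 difference was 1.06, with a 95 percent interval of 0.84 to 1.29 (limma adjusted p = 5.5e-06), and 0.48 as TPM (adjusted p = 7.4e-04). Its exons share 416 of 5476 bases with Gm16277 on the opposite strand.

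Gfra2 (chromosome 14, 70890130 to 70979838) was at 14.7, 18.8, 17.9 and 17.6 FPKM in dopaminergic libraries 1 to 4, against 14.4, 12.9, 15.8, 12.9 and 15.9 FPKM in whole midbrain libraries 1 to 5. The groups overlapped through dopaminergic library 1. The log2 difference of 0.25 passed narrowly (limma adjusted p = 0.0401), and its sign turned to -0.37 as TPM (adjusted p = 0.041). The call also ended under quantile normalization (limma adjusted p = 0.399), under upper-quartile scaling (0.131), without the filter on low values (0.0586), with the replicate number as a block (0.0674), and without dopaminergic library 2, 3 or 4 (0.113, 0.0944 and 0.0858) or whole midbrain library 1 or 4 (0.0663 and 0.0903). No direction is therefore given for Gfra2. Gfra3, on chromosome 18, was listed at 0 in all 9 libraries, which in Cufflinks output can also be a failed estimate.

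**Figure D2:**
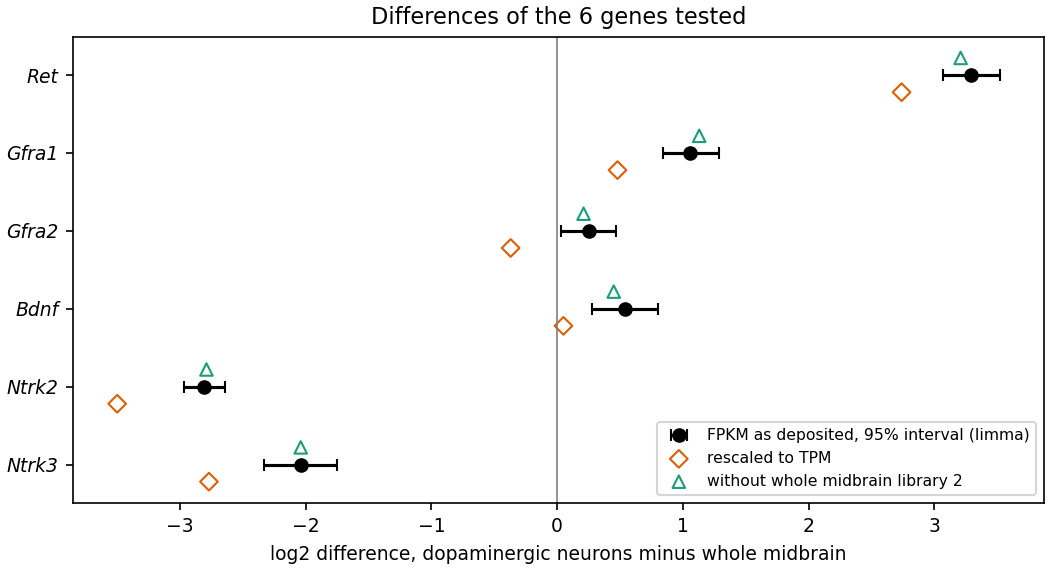
Log2 difference of the 6 members tested, dopaminergic neurons minus whole midbrain, as deposited with 95 percent intervals (filled points), rescaled to TPM (diamonds) and without whole midbrain library 2 (triangles). Ret and Gfra1 stay above 0 and Ntrk2 and Ntrk3 below 0 in the 3 versions drawn, whereas Gfra2 turns to -0.37 and Bdnf to 0.05 as TPM.

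Ntrk2 (chromosome 13, 58806569 to 59133970) was at 11.9, 13, 11.0 and 13.2 FPKM in dopaminergic libraries 1 to 4, against 90.2, 97.1, 93.2, 88.9 and 90.1 FPKM in whole midbrain libraries 1 to 5. Both groups were narrow and far apart. The log2 difference was -2.81, with a 95 percent interval of -2.97 to -2.64 (limma adjusted p = 1.2e-09).

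Ntrk3 (chromosome 7, 78192114 to 78577838) was at 4.19, 7.01, 6.35 and 4.54 FPKM in dopaminergic libraries 1 to 4, against 26.5, 26, 26.8, 23.8 and 24.1 FPKM in whole midbrain libraries 1 to 5. Dopaminergic libraries 1 and 4 were lower than libraries 2 and 3, and the groups did not overlap. The log2 difference was -2.04, with a 95 percent interval of -2.33 to -1.75 (limma adjusted p = 2.8e-07). The falls of Ntrk2 and Ntrk3 were called under every alternative tried, with log2 differences of -3.50 to -2.49 and -2.77 to -1.54.

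Ngfr (chromosome 11, 95568821 to 95587698) was at 0.114, 0.325, 0.167 and 0.101 FPKM in dopaminergic libraries 1 to 4, against 1.35, 1.02, 0.833, 1.05 and 1.83 FPKM in whole midbrain libraries 1 to 5. All dopaminergic values lay below all whole midbrain values. With a mean of 0.755 FPKM over the 9 libraries it was not among the genes tested. Fitted without that minimum it was lower, with a log2 difference of -0.90 ± 0.13 (SE; limma adjusted p = 5.8e-04), where 26.9 percent of 24487 rows were called lower, and the exact two-sided permutation test gave p = 0.0159, the smallest that 4 against 5 libraries allow. Being low, its log2 difference depends on the pseudocount, at -2.27 with 0.1 and -0.26 with 5.

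Fewer cells of a type and less RNA per cell cannot be told apart in bulk libraries. Markers of other cells were lower in the dopaminergic libraries, as were Ntrk2, Ntrk3 and Ngfr. As a percentage of the mean in whole midbrain, dopaminergic libraries 1 to 4 held 13, 14.2, 11.9 and 14.4 percent for Ntrk2, and for Ntrk3 16.4, 27.5, 25.0 and 17.8 percent. For Ngfr they held 9.34, 26.7, 13.7 and 8.29 percent. Over the same libraries the median astrocyte marker stood at 4.73, 6.03, 4.95 and 7.18 percent and the median oligodendrocyte marker at 9.01, 12.9, 8.69 and 17.3 percent. Genes listed as markers of other neurons, such as Gad1 and Slc17a6, had a median of 11.9, 20.2, 15.6 and 15.5 percent. Whether dopaminergic neurons themselves express some of these genes, such as Slc17a6, was not tested. Markers of mural cells and fibroblasts had a median of 4.11, 5.34, 3.89 and 5.57 percent. The median marker of oligodendrocyte precursors stood at 13.1, 13.9, 14.3 and 19.3 percent. Ntrk2 was thus above the astrocyte median in all 4 libraries. It was below the precursor median in libraries 1, 3 and 4 and below the median of other neurons in libraries 2, 3 and 4. Ntrk3 was above every median given here except that of precursors in library 4. Ngfr was above the astrocyte median in all 4 libraries and below the precursor median in libraries 1, 3 and 4. All 12 astrocyte markers, all 10 oligodendrocyte markers and 9 of 10 tested markers of other neurons were called lower, and none of these was called higher. Summed FPKM of the markers of other neurons ran from 64.6 to 79.3 in dopaminergic libraries, against 390.2 to 432 in whole midbrain libraries. All tested markers of oligodendrocyte precursors (5), microglia (10), endothelium (8) and mural cells and fibroblasts (8) were called lower as well. Of the markers of other neurons Slc6a2 and Dbh were at 0 in at least 1 dopaminergic library. The part of such cells in the falls of Ntrk2, Ntrk3 and Ngfr was not tested.

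**Figure D3:**
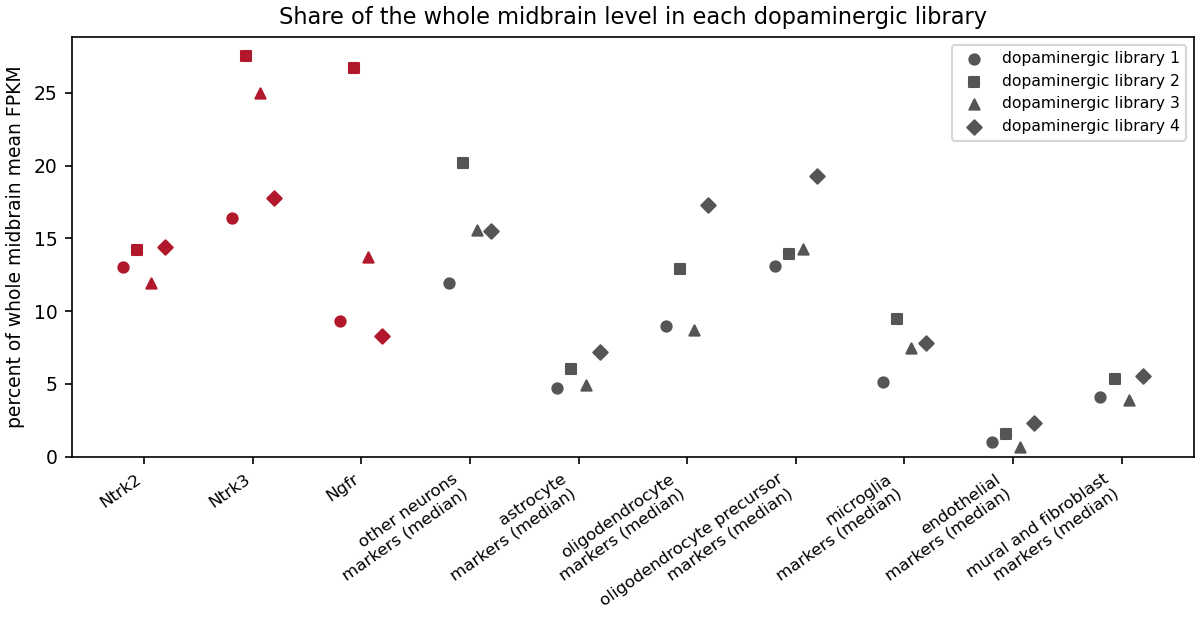
Percent of the whole midbrain mean FPKM found in dopaminergic libraries 1 to 4, for Ntrk2, Ntrk3 and Ngfr (red) and for the median marker of 7 lists of other cells (grey). Ntrk2 lies between 11.9 and 14.4 percent, with the astrocyte median at 4.73 to 7.18 percent, that of oligodendrocyte precursors at 13.1 to 19.3 percent and that of other neurons at 11.9 to 20.2 percent.

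The order of the members differed between the groups. FPKM is scaled by length, so levels of different genes can be set side by side, but only roughly. The forms of Ntrk2 and Ntrk3 were not separated. In dopaminergic neurons the mean level fell in the order Ret, Gfra1, Gfra2, Ntrk2, Ntrk3, Bdnf, Gdnf, Ngfr and Gfra3, and the ranges of Ntrk3 and Bdnf and of Gdnf and Ngfr overlapped. In whole midbrain the order was Ntrk2, Ntrk3, Gfra2, Ret, Gfra1, Bdnf, Ngfr, Gdnf and Gfra3, and the ranges of Ret and Gfra1 overlapped. Ret was thus the most abundant of the 9 transcripts in each of the 4 dopaminergic libraries, and Ntrk2 in each of the 5 whole midbrain libraries.

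Ratios of 2 genes within a library were compared because the scaling between libraries cancels in them, apart from the pseudocount. Gfra1 over Ret was -2.23 ± 0.11 on the log2 scale in dopaminergic neurons (SD, n = 4) and 0.00 ± 0.33 in whole midbrain (SD, n = 5), so co-receptor and kinase were near the same level in the tissue while Ret exceeded Gfra1 in the dopaminergic libraries. Gfra2 over Gfra1 was -0.29 ± 0.21 in dopaminergic neurons and 0.53 ± 0.25 in whole midbrain. Thus Gfra1 was the higher of these co-receptors in all 4 dopaminergic libraries and Gfra2 the higher in all 5 whole midbrain libraries. The margin was small in dopaminergic library 2, where this ratio was -0.05. Ntrk2 over Ntrk3 was 1.05 ± 0.34 in dopaminergic neurons and 1.81 ± 0.06 in whole midbrain, a difference of -0.77. Ret over Th was -3.95 ± 0.10 in dopaminergic neurons and -2.18 ± 0.18 in whole midbrain, so Ret rose less than Th did. Each of the 4 ratios had no overlap between groups, with p = 0.0159 in an exact two-sided permutation test, the smallest possible here, and the same value after adjustment over the 4. In whole midbrain library 2 Gfra1 over Ret was 0.59, against -0.19 to -0.11 in the rest of its group, and without that library the difference of this ratio was -2.08, against -2.23 with it.

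**Figure D4:**
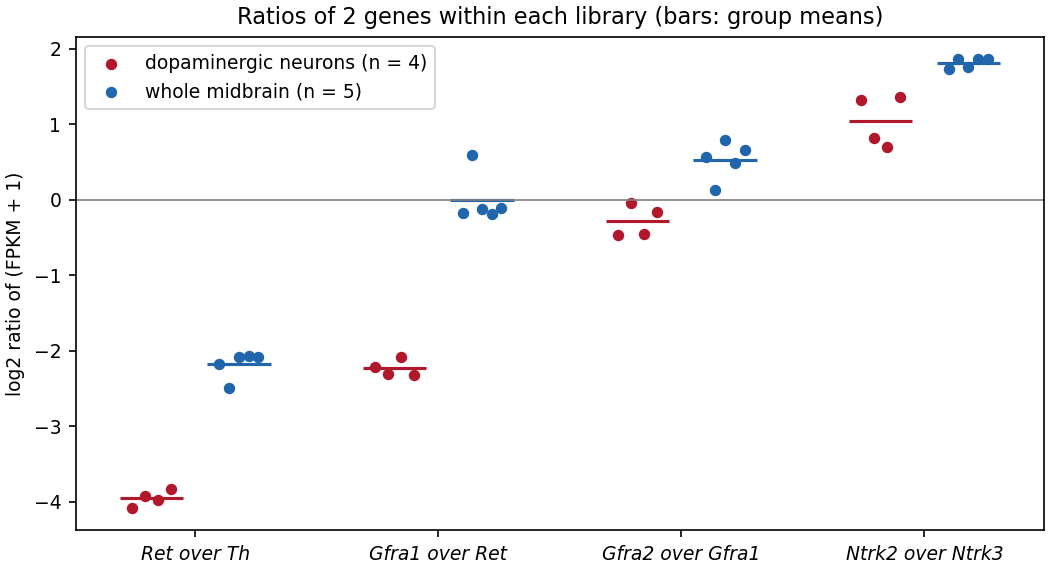
Log2 ratio of (FPKM + 1) of 2 genes within each library, for 4 dopaminergic (left, red) and 5 whole midbrain (right, blue) libraries, with bars for group means. The groups do not overlap in any of the 4 ratios, and whole midbrain library 2 lies apart at 0.59 for Gfra1 over Ret.

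Genes whose pattern over the 9 libraries was most like that of Ret were sought among 11941 tested genes by the root mean square difference of log2 profiles, each centred on the middle of its group means. They were Ldoc1, Lix1, Aldh1a7, Cadps2 and Hist2h4, with differences of 0.119 to 0.207. Ldoc1, the nearest, was at 41.1, 41.8, 33.9 and 37.0 FPKM in dopaminergic libraries 1 to 4, against 3.21, 2.20, 2.96, 3.58 and 3.59 FPKM in whole midbrain libraries 1 to 5, and whole midbrain library 2 was the lowest of its group as it was for Ret. Aldh1a7 and Hist2h4 have close relatives in the genome with which reads can be shared. For Ntrk2 the nearest were Ptn, Col11a1, Slc14a1, Pbxip1 and Il1f9, with differences of 0.081 to 0.089. Ptn, which encodes the secreted growth factor pleiotrophin, was at 5.83, 7.33, 5.74 and 8.04 FPKM in dopaminergic libraries, against 50.3, 51.0, 50.2, 51.0 and 53.1 FPKM in whole midbrain libraries. Of the 5, Ptn kept 13.2 percent of its whole midbrain mean, close to the 13.4 percent of Ntrk2. The other 4 were low genes at 0.734 to 4.86 percent, so their likeness to Ntrk2 rests on the pseudocount of 1.

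The remaining genes of these pathways were described by 6 lists and set beside all genes tested, whose median log2 difference was 0.04 and of which 38.3 percent were called higher and 36.0 percent lower. As TPM, where the median of all genes was -0.55 and these shares were 17.2 and 56.4 percent, single genes moved with that shift. Of 8 further genes of the GDNF system 3 were tested. Gfra4, a member of the GDNF family, rose, while Ncam1 and Sdc3, which are not members of it, fell. Gfra4, the co-receptor of persephin, was at 42.6, 36.2, 45.1 and 45.5 FPKM in dopaminergic libraries 1 to 4, against 10.8, 11.7, 15.6, 10.6 and 15.0 FPKM in whole midbrain libraries 1 to 5. It was thus higher than Gfra1 in every dopaminergic library, and its log2 difference was 1.67 ± 0.13 (SE; limma adjusted p = 1.2e-06). Ncam1, a cell adhesion molecule that can also bind GDNF, was at 28.0 ± 1.16 FPKM in dopaminergic neurons and 73.5 ± 3.50 FPKM in whole midbrain. The ligands Nrtn, Artn and Pspn averaged 0.203 to 0.307 FPKM in dopaminergic neurons and 0.163 to 0.256 FPKM in whole midbrain and were not tested.

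Of 13 further genes of the neurotrophin system 10 were tested, of which 3 rose and 5 fell, with a median of -0.47. The sign of that median depended on the filter, since with a minimum mean of 5 FPKM 6 genes were tested, 3 higher and 2 lower, with a median of 0.34. Ntf3, which encodes neurotrophin 3, was at 10.8, 9.56, 11.6 and 10.8 FPKM in dopaminergic libraries 1 to 4, against 1.59, 0.308, 1.02, 0.533 and 0.602 FPKM in whole midbrain libraries 1 to 5. It was above Bdnf in all 4 dopaminergic libraries, with a log2 difference of 2.73 ± 0.18 (SE; limma adjusted p = 3.7e-07). Its receptor gene Ntrk3 fell in the same comparison, as given above. Ntf5 averaged 0.0375 FPKM in dopaminergic neurons and 0.0486 FPKM in whole midbrain and was not tested. Ngfrap1, whose product was named for binding p75NTR, rose by 2.07 on the log2 scale, and by 0.97 under quantile normalization. The sortilin-related receptor genes Sorcs1 and Sorcs3 fell by 1.86 and 1.44 on the log2 scale.

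Of 37 tested adaptors and kinases downstream of these receptors 19 were called higher and 6 lower, with a median of 0.34. As TPM 5 were higher and 16 lower, with a median of -0.24, beside the shift of all genes to -0.55. Mapk3, which encodes ERK1, was 3.82-fold higher, at 186 to 200.0 FPKM in dopaminergic libraries and 44.8 to 61.0 FPKM in whole midbrain libraries, and Hras averaged 42.4 ± 5.91 FPKM in dopaminergic neurons and 14.2 ± 5.18 FPKM in whole midbrain. Both stayed called higher as TPM, at 1.29 and 0.97, and Mapk3 was at 1.21 under quantile normalization, against 1.92 as deposited. Gab1, an adaptor protein, and Pik3r1, a regulatory subunit of PI3 kinase, fell by 1.14 and 0.93 on the log2 scale. Gab2 and Pik3r2 of the same list went the other way, called higher at 0.69 and 0.71 as deposited.

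Of 14 tested negative regulators of receptor kinases 2 were called higher and 6 lower, with a median of -0.29, and as TPM 1 and 13, with a median of -0.92. The share lower as deposited was near that of all genes. Lrig1, a transmembrane protein that restrains Ret and other kinases, was at 1.5, 1.11, 1.65 and 1.68 FPKM in dopaminergic libraries 1 to 4, against 11.0, 8.29, 10.5, 11.8 and 11.0 FPKM in whole midbrain libraries 1 to 5. The groups were far apart, with a log2 difference of -2.21 ± 0.11 (SE; limma adjusted p = 7.2e-08), and its exons share 144 bases with Slc25a26 on the opposite strand. Lrig2 fell by 1.40 on the log2 scale. Spred2, an inhibitor of the Ras pathway, rose to 34.9 ± 5.39 FPKM in dopaminergic neurons, against 12.4 ± 0.978 FPKM in whole midbrain. Spred1 of the same list went the other way, at 9.43 ± 0.904 FPKM in dopaminergic neurons and 23.0 ± 1.16 FPKM in whole midbrain. Rasa1 was called higher at 0.24, but was at -0.36 as TPM and lost the call with the replicate number as a block (limma adjusted p = 0.0746).

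Among 9 tested genes of pro-neurotrophin processing and release 1 was called higher and 6 lower, with a median of -0.81. Cadps2, a priming factor of dense-core vesicles that promotes BDNF release, was at 125, 113, 105 and 103 FPKM in dopaminergic libraries 1 to 4, against 11.9, 11.1, 14.4, 12.4 and 11.3 FPKM in whole midbrain libraries 1 to 5. Its paralog Cadps was not called, at 63.1 ± 3.89 FPKM in dopaminergic neurons and 71.9 ± 5.35 FPKM in whole midbrain. Plat, the tissue plasminogen activator, fell by 1.38 on the log2 scale, as did Cpe, which encodes a sorting receptor and carboxypeptidase. Cpe was at 1140 FPKM in whole midbrain library 2, against 292 to 389 FPKM in the rest of its group, and without that library its difference was -1.03, while under quantile normalization it was -2.27.

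Of 18 tested trophic factors and receptors of other families 3 rose and 14 fell, with a median of -1.13. Fgf20 was at 9.82, 7.22, 6.95 and 6.50 FPKM in dopaminergic libraries 1 to 4, against 0.185, 0.0673, 0.766, 0.0953 and 0.351 FPKM in whole midbrain libraries 1 to 5. This fibroblast growth factor rose by 2.75 on the log2 scale (limma adjusted p = 2.3e-07), with whole midbrain library 3 the highest of its group, and its exons share 202 of 1678 bases with Micu3 on the opposite strand. The whole midbrain mean of Fgf20 was 0.293 FPKM, so it passed the minimum for testing only through the dopaminergic libraries. Being low in whole midbrain, its log2 difference ranged from 1.25 to 4.55 over the alternatives. Igf1, an insulin-like growth factor, was 4.66-fold higher, at 21.7 ± 2.40 FPKM in dopaminergic neurons and 4.65 ± 0.659 FPKM in whole midbrain. The related heparin-binding factors Mdk and Ptn fell, with log2 differences of -3.17 and -2.76.

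**Figure D5:**
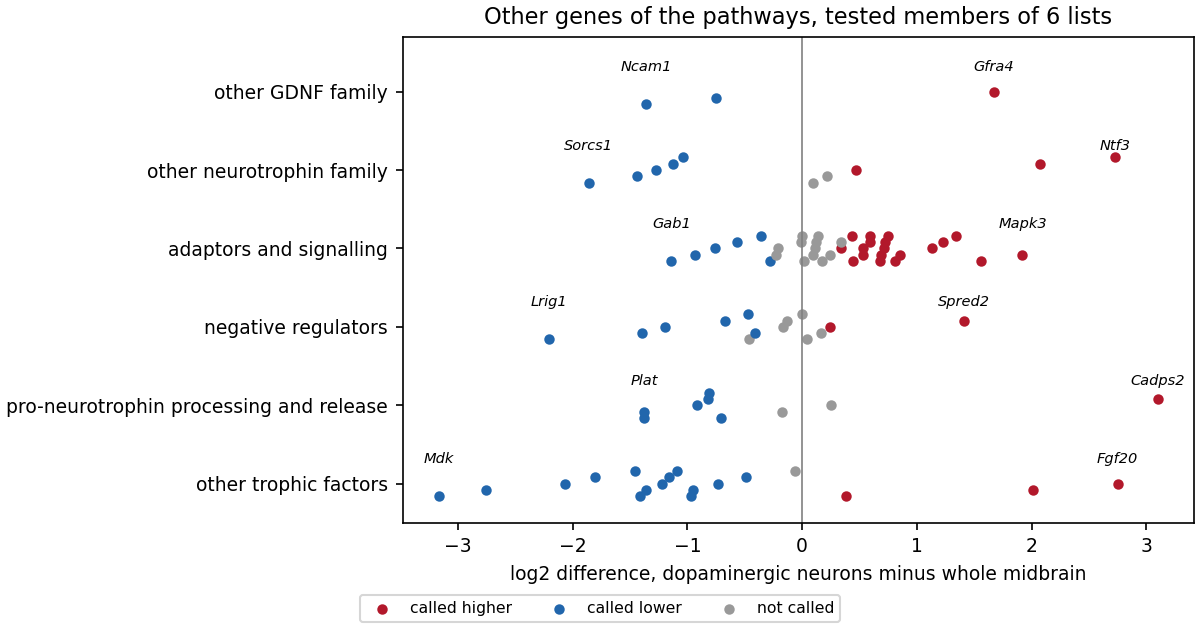
Log2 difference, dopaminergic neurons minus whole midbrain, of each tested gene in 6 lists of related genes, coloured by its call in limma, with the lowest and highest gene of each list named; height within a list has no meaning. Ntf3 at 2.73, Cadps2 at 3.10 and Gfra4 at 1.67 stand apart from the lower members of their lists.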

How the data were processed

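The authors deposited 1 table of FPKM. Per the submitters' processing notes the tools were Cufflinks 2.1.1 and TopHat2 2.0.8 and the build mm10. The annotation, the options and the strand setting are not stated in the labels or the table. Deposited FPKM have at most 6 significant digits in the dopaminergic libraries and up to 10 in the whole midbrain libraries, so the files of the groups were handled differently in some step. That difference coincides with the groups.

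FPKM are not counts, so limma 3.58.1 in R 4.3.3 was run on log2(FPKM + 1), two-sided, with a mean-variance trend and no further scaling. Its script was run on simulated data with changes planted in a small part of the genes. Such a run checks the code alone, since these data have many more calls and a group difference in summed FPKM. Ratios were tested with SciPy 1.17.1 and figures drawn with matplotlib 3.10.9. Depth was estimated with an assumed fragment of 200 bases. Starts of the table's spans were counted from 0 and are printed counted from 1. Overlaps come from GENCODE vM21, on the same assembly as mm10.

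The members and lists were chosen with earlier results of these data known. Beyond the 9 members, the rule named up to 2 called genes with the largest rise and up to 2 with the largest fall in each list, and the 5 nearest genes to Ret and to Ntrk2. Ntf5, Nrtn, Artn, Pspn, Gab2, Pik3r2, Spred1, Cadps, Gad1, Slc17a6, Slc6a2 and Dbh were named after their values were seen. Alternatives were other pseudocounts, filters and scalings, no trend, the replicate number as a block, and leaving out each library. The exact tests of Gdnf and Ngfr were added after seeing the data.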

Additional observations from a re-analysis of the deposited data

Results flagged for a closer look

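In whole midbrain library 2 the log2 ratio of Ret over Th was -2.50, farther below the other 4 libraries of its group than their spread allows in Dixon's test. In the same library the log2 ratio of Gfra1 over Ret was 0.59, above the other 4 by the same test. Among 26 groups of values examined, chance would be expected to mark about 1 in 20. Without that library the differences between groups were -1.86 for Ret over Th and -2.08 for Gfra1 over Ret, and both ratios still had no overlap between groups.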

How the results depend on the processing

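Ret, Gfra1, Ntrk2 and Ntrk3 kept their direction and call under all 19 alternatives, while Gfra2 did so under 9, and Bdnf lost its call as TPM (0.05) and was not tested with a minimum mean of 5 FPKM. As TPM the signs of Gfra2 (-0.37) and Rasa1 (-0.36) reversed, 2 members were called higher, 5 adaptors higher and 16 lower, 1 negative regulator higher and 13 lower, and over all genes 2248 higher and 7393 lower. Calls under TPM depend on the group difference in summed FPKM, and 23.3 percent of them were higher, against 51.5 percent for FPKM as deposited. With a minimum mean of 5 FPKM fewer genes were tested, and 2 other neurotrophin genes, 3 processing genes, 9 other trophic factors and 2493 of all genes were called lower, with 62.6 percent of calls higher. Under quantile normalization 4 negative regulators and 2 processing genes were called higher (the cause was not tested). After group means were removed, correlations between libraries of the same replicate number were -0.0498 to 0.0190. Those between libraries of different numbers were -0.0948 to 0.0787. These values show no sign of pairing by number, but they cannot settle whether the samples were paired. With the replicate block 1 negative regulator was called higher, and the ratio differences were -1.75 for Ret over Th, -2.26 for Gfra1 over Ret, -0.78 for Gfra2 over Gfra1 and -0.75 for Ntrk2 over Ntrk3, each with an exact sign-flip p of 0.125, the smallest that 4 pairs allow. Leaving out 1 library at a time gave 3 to 4 members higher and 2 lower, 4712 to 5646 of all genes higher and 4483 to 5089 lower, and ratio differences of -1.86 to -1.73, -2.28 to -2.08, -0.91 to -0.75 and -0.87 to -0.65 in the same order. Counting error is large for Gdnf at these depths.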
